A study of Mus musculus with 8 samples.

Results

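Thrombospondins, Sparc, periostin, tenascin C and the CCN proteins are matricellular proteins. They are secreted into the extracellular matrix, where they bind collagens, growth factors, proteases and cell surface receptors and change how cells sense the matrix, rather than bearing load themselves. Most are abundant in development and are made again in wounds, inflamed tissue and remodelling cartilage and vessel wall, and several of their genes respond to serum, injury or mechanical load.

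The genes were set down as a list of 10 by name: Thbs1, Thbs2, Thbs3, Thbs4, Sparc, Postn, Tnc, Spp1, Ccn1 (also called Cyr61) and Ccn2 (Ctgf). Every probe set on the Affymetrix Mouse Genome 430 2.0 array whose only gene symbol is one of them was taken, which gave 18 of 45037 probe sets and 9 of 18193 named genes. Spp1, which encodes osteopontin, has no probe set under its name in the annotation used and was not analysed here. A further probe set that carries Thbs1 together with another symbol was left out. The arrays measured RNA of distal trachea and carina from female C57Bl/6 mice, 4 at an age of 2 months (young mice 3, 4, 7 and 8) and 4 at 14 months (old mice 1, 2, 5 and 6), with 1 array per mouse, and the labels name no treatment. The genes were selected on measured values, namely the signals of Thbs1, Thbs2 and Sparc at 14 and 2 months on these arrays. The age differences of all its genes are therefore given as a description, without p-values, and the counts of calls are printed only beside the share of all probe sets or genes called in the same way. Signals are in arbitrary linear units, and means are given with the SD over 4 mice. Changes are log2 fold changes, old against young, each with its standard error (SE) from limma. For a change in the ratio between genes, the SE comes from the pooled SD of the mice, without limma.

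All 8 arrays had a mean signal of 500 with the top and bottom 2% left out, and medians between 149.6 and 160.5. Defining genes of the tissue were bright at both ages, among them Scgb1a1 of secretory cells, with a mean of 29859 in young and 28761 in old mice, Krt5 of basal cells with 1645 and 2042, and the cartilage proteoglycan gene Acan with 6186 and 4122. In RNA of a whole tissue, fewer cells of a type and less RNA per cell cannot be told apart.

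RefSeq sequence from 250 bases before to 50 after the transcription start (build GRCm38.p6) was held for 7 of the 9 genes. The 3 windows below belong to genes whose brightest probe sets did not overlap between ages, with Ccn1 and Thbs2 higher and Sparc lower in old mice. Capitals mark matches to TATAAA on the gene's own strand, and, on either strand, to CATTCC (the core of the TEAD site), TGACG (a part of the cAMP response element), TGANTCA (the AP-1 site) and the CArG box of serum response factor.
Ccn1, chr3:145649936-145650235, minus strand: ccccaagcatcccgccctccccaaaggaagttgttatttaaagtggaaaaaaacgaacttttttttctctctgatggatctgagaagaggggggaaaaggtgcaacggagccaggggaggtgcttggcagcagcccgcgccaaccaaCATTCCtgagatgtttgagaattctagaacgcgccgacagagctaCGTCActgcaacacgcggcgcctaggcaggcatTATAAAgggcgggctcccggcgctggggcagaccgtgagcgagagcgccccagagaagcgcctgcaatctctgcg
Thbs2, chr17:14694213-14694512, minus strand: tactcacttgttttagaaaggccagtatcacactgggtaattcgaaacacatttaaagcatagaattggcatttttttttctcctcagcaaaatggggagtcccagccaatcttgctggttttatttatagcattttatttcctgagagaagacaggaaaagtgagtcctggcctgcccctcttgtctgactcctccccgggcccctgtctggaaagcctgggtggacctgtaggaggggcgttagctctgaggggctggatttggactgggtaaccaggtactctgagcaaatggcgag
Sparc, chr11:55420031-55420330, minus strand: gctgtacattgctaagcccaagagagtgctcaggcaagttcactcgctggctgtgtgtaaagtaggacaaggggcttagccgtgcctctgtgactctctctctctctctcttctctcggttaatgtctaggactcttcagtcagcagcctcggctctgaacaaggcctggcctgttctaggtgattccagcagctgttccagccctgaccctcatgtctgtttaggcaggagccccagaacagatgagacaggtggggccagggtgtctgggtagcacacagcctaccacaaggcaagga
The Ccn1 window held TATAAA 25 bases before the start, TGACG read on the opposite strand 58 bases before it and CATTCC 103 bases before it. Of all 32851 promoter windows, 8.32% held TATAAA, 20.81% TGACG and 14.66% CATTCC. No letters of the 5 motifs occurred in the Thbs2 and Sparc windows. TGANTCA, found in 7.81% of all windows, and the CArG box, found in 1.63%, occurred in none of the windows of these genes. Among the other genes, 1 of the Postn windows and both Tnc windows held TATAAA, and that of Thbs4 held CATTCC at 2 overlapping places. These matches describe letters and are not evidence of binding.

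Thbs1 encodes thrombospondin 1, a trimeric glycoprotein that restrains vessel growth and activates latent TGF-beta. The study measured its transcript by quantitative PCR as well, with a primer pair that is shown here to fix which gene was assayed; the PCR values were not analysed here.
Thbs1 forward primer: tcccctctgctttcacaatg
Thbs1 reverse primer: tcaggaactgtggcgttg
On the arrays the brighter Thbs1 probe set, 1460302_at, read 556, 643, 832 and 892.5 in young mice 3, 4, 7 and 8. It read 2330, 2169, 2792 and 1509 in old mice 1, 2, 5 and 6. The lowest old mouse lay well above the highest young mouse, the means were 731 ± 158 (SD, n = 4) in young and 2200 ± 531 (SD, n = 4) in old mice, and the log2 fold change was 1.58 (SE 0.23). The second probe set, 1450377_at, read 300.1, 373, 401 and 378 in young mice and 731, 671, 928 and 496 in old mice. It did not overlap between ages either, with a smaller log2 fold change of 0.93 (SE 0.20). Both probe sets put old mouse 5 highest and old mouse 6 lowest among the old mice.

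Platelets carry thrombospondin 1, so the levels of their markers are given beside it. None of the 10 measured platelet markers passed an adjusted p under 0.05 by limma, 1 had an unadjusted p under 0.05 (14.6% of all genes did), 9 of the 10 had a positive log2 fold change and 7 of the 10 were in the dimmer part of the array. Their summed signal was 2462 to 2724 in young and 2729 to 5267 in old mice, narrowly without overlap. Old mouse 6, lowest of the old mice for Thbs1, had the highest sum, and its signal of Ppbp, a chemokine stored in platelet granules, was 1232 against 31.4 in old mouse 5, the highest for Thbs1. Ppbp was named after its values were seen and had the widest contrast of the markers between these mice. Pf4, the brightest of the markers, read 2327 and 2047 in them. Over all mice Pf4 read 1528 to 1782 in young and 1906 to 2327 in old mice. It was the 1 marker of the 10 that lay higher in old mice without overlap (5.02% of all genes did). Whether platelet RNA takes part in the Thbs1 difference was not tested.

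Thbs2 encodes thrombospondin 2, the nearest relative of thrombospondin 1, which is made mainly by fibroblasts and affects collagen fibril assembly. Its brightest probe set, 1450663_at, read 259, 313, 244 and 285 in young mice 3, 4, 7 and 8, and 444, 527, 422 and 443 in old mice 1, 2, 5 and 6. The ages did not overlap, and the log2 fold change was 0.74 (SE 0.12). The other 2 probe sets did overlap between ages, at log2 fold changes of 0.47 (SE 0.23) for 1447862_x_at and 0.24 (SE 0.26) for 1422571_at. In both, young mice 7 and 8 lay below all of the old mice. For 1447862_x_at, young mouse 3 (314) did so too, against an old low of 328, and only young mouse 4 (371) lay within the old range. For 1422571_at, young mouse 3 (205) lay within the old range and young mouse 4 (266) above the old high of 261. The size of the Thbs2 difference therefore depended on which probe set was read, although all 3 changes were positive.

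Thbs3 and Thbs4 encode pentameric thrombospondins of cartilage, tendon and muscle, and each has 1 probe set. Thbs3 read 589.6, 561, 467 and 447 in young mice 3, 4, 7 and 8 and 482, 430.1, 461 and 375 in old mice 1, 2, 5 and 6. The ages overlapped, with a log2 fold change of -0.24 (SE 0.13). Thbs4 read 395, 449, 506 and 555 in young and 512, 487, 398 and 395 in old mice, which overlapped almost wholly, at -0.09 (SE 0.15). Thbs3 and Thbs4 thus did not show the separation of ages seen for Thbs1 and for the brightest probe set of Thbs2.

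**Figure D1:**
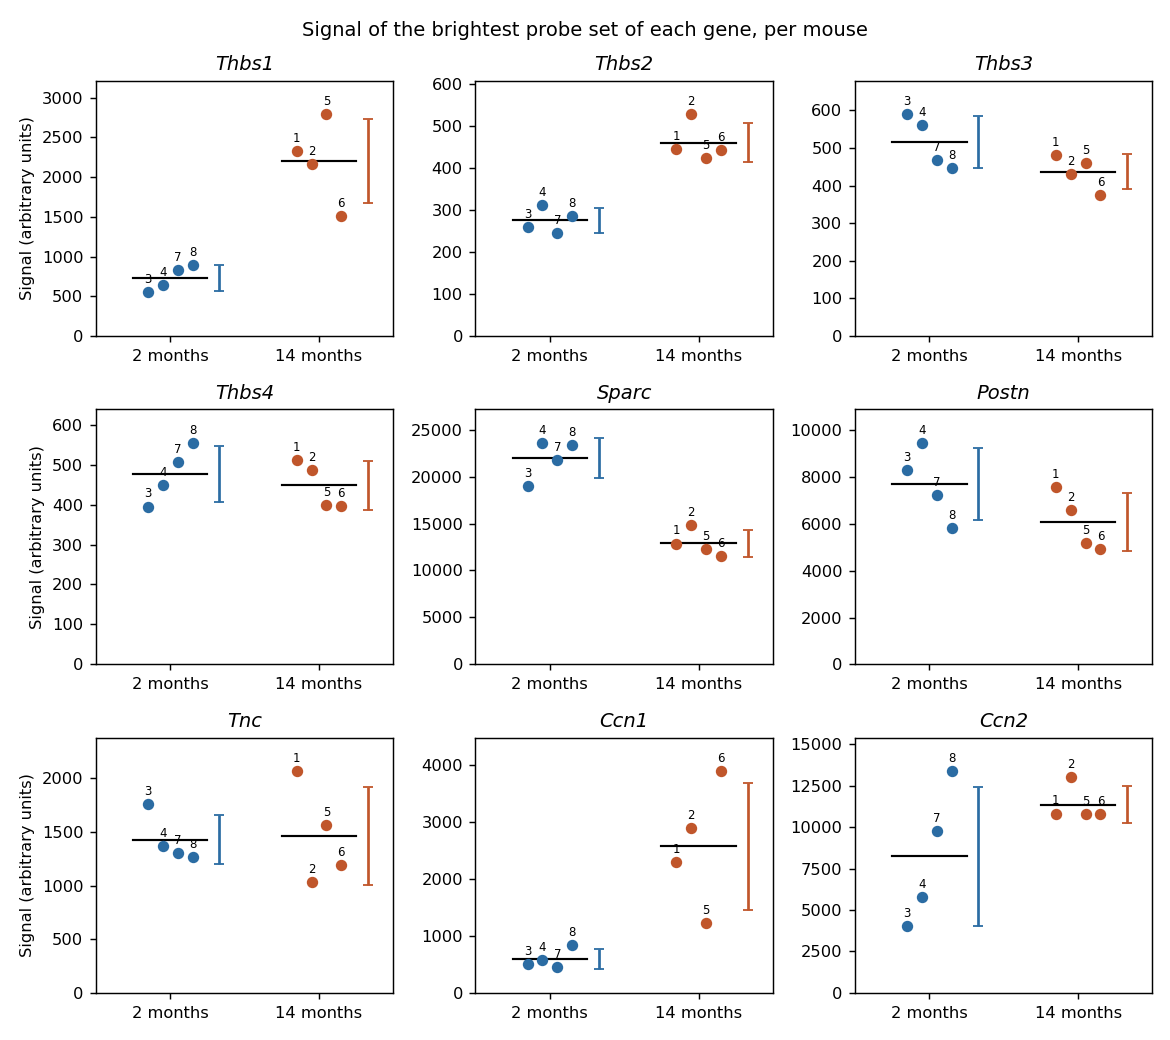
Signal of the brightest probe set of each of 9 genes in each mouse, on linear axes of arbitrary units that start at 0. Points are mice with their label numbers, black lines are means of 4 mice and bars beside them the SD; old mice lie above all young mice for Thbs1, Thbs2 and Ccn1, below them for Sparc, and overlap them for the other 5 genes.

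Sparc, also called osteonectin, binds collagen and calcium and is needed for normal collagen fibrils. Its brightest probe set, 1416589_at, read 19036, 23597, 21795 and 23388 in young mice 3, 4, 7 and 8. It read 12873, 14835, 12322 and 11540 in old mice 1, 2, 5 and 6. Every old mouse lay below every young mouse, with a log2 fold change of -0.77 (SE 0.12). The second probe set, 1448392_at, read between 16113 and 18518 in young and between 10363 and 12198 in old mice, again without overlap, at -0.65 (SE 0.092). The third, 1458204_at, was in the dimmer part of the array, with means of 139 ± 23.0 (SD, n = 4) in young and 136 ± 47.1 (SD, n = 4) in old mice, and a log2 fold change of -0.07 (SE 0.24).

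Read against each other within a mouse, Thbs1 and Sparc moved apart. The log2 ratio of their brightest probe sets was higher by 2.35 (SE 0.22) in old than in young mice, a 5.10-fold shift, and that of Thbs2 to Sparc by 1.51 (SE 0.073), a 2.85-fold shift. The Thbs2 ratio was the steadier of the 2 within the old mice, between -4.87 and -4.70, while the Thbs1 ratio ranged from -2.94 to -2.14. Over all 6 pairs of Thbs1 and Sparc probe sets the shift was 1.01 to 2.35, and over the 9 pairs of Thbs2 and Sparc it was 0.31 to 1.51. The ages were without overlap in all 6 of the former pairs and in 6 of the latter 9. These pairs share probe sets and mice, and no share over other pairs of genes was computed. These genes were picked for their opposite directions on these arrays. The sign, the size and the lack of overlap of these shifts are therefore all subject to that choice and are given as a description.

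**Figure D2:**
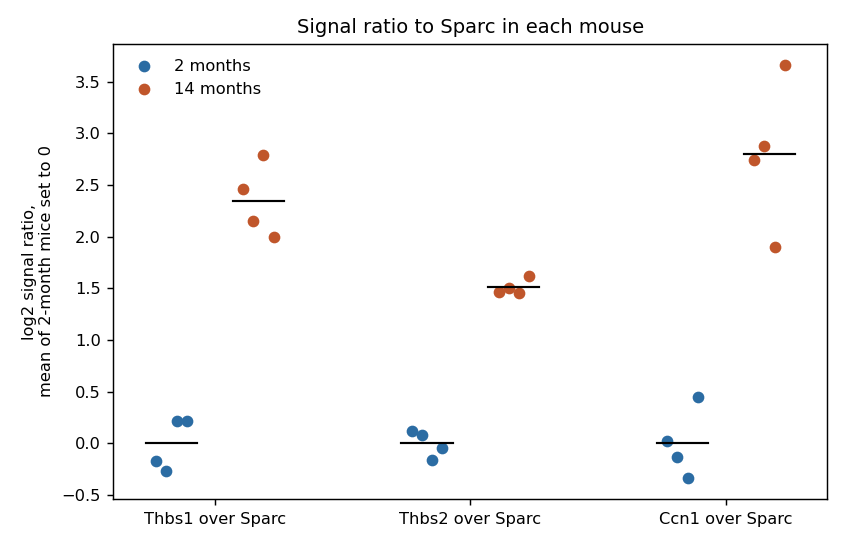
Log2 ratio of the brightest probe set of Thbs1, Thbs2 or Ccn1 to that of Sparc in each mouse, with the mean of the 4 young mice set to 0. Points are mice and lines means of 4 mice. The old means lie at 2.35, 1.51 and 2.80, and no old mouse overlaps a young one. Thbs1, Thbs2 and Sparc were chosen on these values.

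Postn encodes periostin, which binds collagen I and fibronectin and takes part in collagen cross-linking. Its single probe set read 8286, 9456, 7234 and 5818 in young mice 3, 4, 7 and 8 and 7571, 6578, 5176 and 4939 in old mice 1, 2, 5 and 6. The ages overlapped, at a log2 fold change of -0.34 (SE 0.20). Within each age the mice with the lower label numbers were the higher: young mice 3 and 4 exceeded 7 and 8 by 0.45 on the log2 scale, and old mice 1 and 2 exceeded 5 and 6 by 0.48. The labels do not say that mouse numbers mark a batch. The age difference was -0.33 among mice 1 to 4 and -0.36 among mice 5 to 8, so it was of like size on either side of that division.

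Tnc encodes tenascin C, a six-armed glycoprotein of healing wounds and inflamed airways. Its bright probe set, 1416342_at, read 1761, 1373, 1303 and 1269 in young mice and 2065, 1029, 1564 and 1192 in old mice. The ages overlapped with no shift in the mean, at a log2 fold change of -0.0035 (SE 0.23), a sign that turned to 0.15, 0.08 or 0.10 without old mouse 2, old mouse 6 or young mouse 3. The other, 1456344_at, was dim, with means of 33.8 ± 7.66 (SD, n = 4) in young and 58.4 ± 13.7 (SD, n = 4) in old mice, and did not overlap, at 0.79 (SE 0.22). The probe sets of Tnc thus gave different answers, and the one with a difference lay among the dimmest signals.

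Ccn1 and Ccn2 encode secreted proteins of the CCN family that bind integrins, and both genes are known targets of the transcriptional co-activator YAP. The 2 largest changes among the 18 probe sets were those of Ccn1. Its brightest probe set, 1416039_x_at, read 513, 571, 458 and 846 in young mice 3, 4, 7 and 8 and 2287, 2888, 1224 and 3887 in old mice 1, 2, 5 and 6. All old mice lay above all young mice, with a log2 fold change of 2.03 (SE 0.36) and a wide spread within the old group. The 4 probe sets of Ccn1 had log2 fold changes of 2.04 (1438133_a_at), 2.03, 1.38 (1457823_at) and 1.32 (1442340_x_at), and none overlapped between ages. Old mouse 6 was highest and old mouse 5 lowest among the old mice in all 4.

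Ccn2 behaved differently from Ccn1. Its single probe set read 4037, 5758, 9781 and 13375 in young mice 3, 4, 7 and 8 and 10824, 13009, 10788 and 10783 in old mice 1, 2, 5 and 6. The old mice were nearly level, while the young mice spanned more than the whole range of the old ones. The log2 fold change of 0.61 (SE 0.36) was accordingly less than 2 standard errors from 0. It was 1.30 among mice 1 to 4 and -0.085 among mice 5 to 8, as young mice 3 and 4 were low and young mice 7 and 8 were not. Thbs1 was also lower in young mice 3 and 4 than in 7 and 8, by 0.53 on the log2 scale, but its age difference kept its sign on either side, at 1.91 and 1.25.

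**Figure D3:**
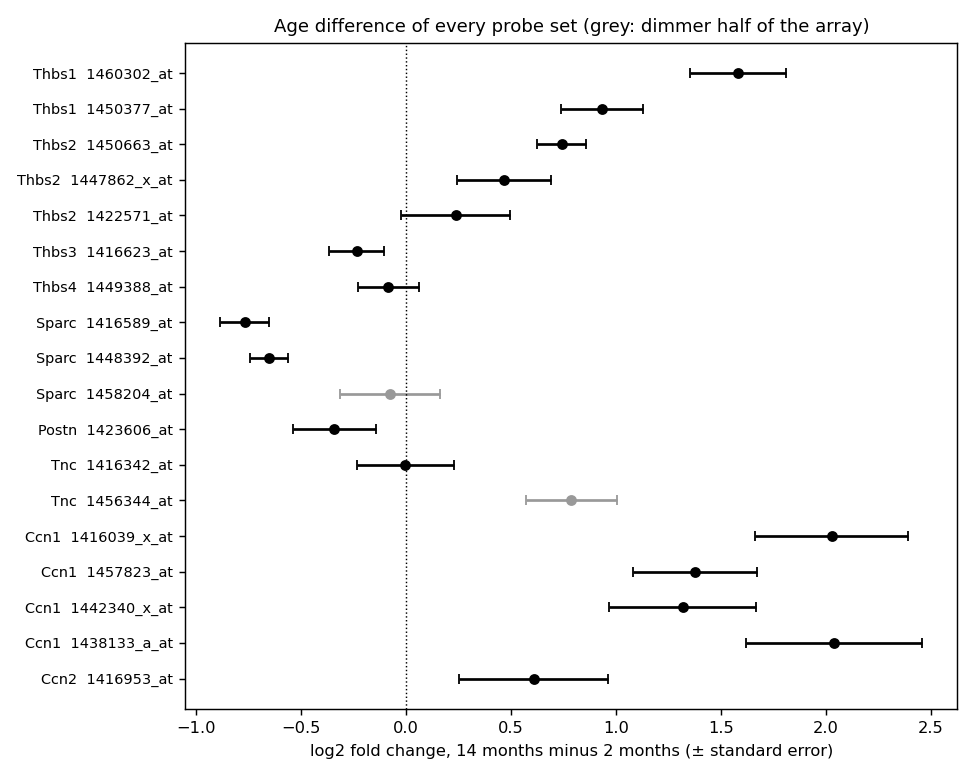
Log2 fold change of old minus young mice (4 against 4) for each of the 18 probe sets, with bars of 1 standard error from the limma fit and grey for the 2 probe sets in the dimmer part of the array. Both probe sets of Thbs1 and all 4 of Ccn1 lie above 0.9, 2 of the 3 of Sparc lie below -0.6, and the others fall between.

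Across the 18 probe sets, 8 lay higher and 2 lower in old mice without any overlap between ages, where 4.05% of all probe sets lay higher and 3.75% lower in that way. The log2 fold change was above 0 in 11 of the 18 and below 0 in 7, and their median was 0.54 against -0.01 over all probe sets. The median over the brightest probe set of each of the 9 genes was -0.0035, since several probe sets of Ccn1, Thbs1 and Thbs2 count in the former. By the methods' thresholds, a fold of more than 2 with an unadjusted p under 0.05, 5 of the 18 were higher, 4 of Ccn1 and 1 of Thbs1, and none was lower, while 1.19% of all probe sets were higher and 0.802% lower. With adjustment over all probe sets in limma none of the 18 passed 0.05 in either direction, where 0.0533% of all were called higher and 0.0178% lower. An unadjusted p under 0.05 was held by 10 of the 18 and by 11.2% of all probe sets. The same limma test over genes, each with its brightest probe set, called Thbs1 and Thbs2 higher and Sparc lower, where 0.368% of genes were called higher and 0.181% lower. With any 1 of the 8 mice left out none of the 3 was called, except Thbs1 without old mouse 6, and none was called with mouse numbers as a block. When the dimmer part of the probe sets was left out, 6 of 16 were called higher, 3 of Ccn1, 2 of Thbs1 and 1 of Thbs2, and 2 of 16, both of Sparc, lower, beside 1.2% and 1.01% of the 22519 probe sets. Nothing is read from these counts, since the contrast was used in choosing the genes.

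Beyond the named genes, the wider family showed no calls. Of 22 other matricellular genes, including the remaining CCN, tenascin, fibulin and Sparc-related genes, none passed an adjusted p under 0.05 over all genes by limma, 12 lay above 0 and 10 below it, and the median log2 fold change was 0.10 against -0.0047 for all genes. At an unadjusted p under 0.05, 10 of the 22 passed, beside 14.6% of all genes. Of the 22, 3 lay higher and 3 lower in old mice without overlap, beside 5.02% and 5.11% of all genes. Ccn3 (formerly Nov), a CCN member that restrains proliferation, was at 0.34 (SE 0.074, adjusted p = 0.104 by limma), with 1353, 1311, 1491 and 1518 in young and 1858, 1747, 1808 and 1749 in old mice. Comp, the fifth thrombospondin, a cartilage protein and pentameric like those of Thbs3 and Thbs4, was at 0.66 (SE 0.17, adjusted p = 0.150 by limma), with 1375 to 2394 in young and 2943 to 3266 in old mice. Neither gene overlapped between ages.

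Receptors of these proteins, 17 integrin subunits, scavenger receptors and others, had none called either, and a median of 0.01. The 2 with the smallest p were Cacna2d1, a calcium channel subunit that binds thrombospondins, at -0.38 (SE 0.096, adjusted p = 0.144 by limma), and Itga4, an integrin subunit of leukocytes, at 0.29 (SE 0.11, adjusted p = 0.287 by limma). At an unadjusted p under 0.05, 4 of the 17 passed, beside 14.6% of all genes. Of 11 measured genes of TGF-beta ligands, their latency proteins and targets, none was called, and the median was 0.11. The smallest p values were those of Ltbp4, at -0.31 (SE 0.083, adjusted p = 0.155 by limma), and Ltbp3, at -0.32 (SE 0.093, adjusted p = 0.177 by limma), both of which hold latent TGF-beta in the matrix. For these genes, 3 of the 11 passed an unadjusted p under 0.05.

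Of the collagens and other matrix partners of Sparc and periostin, several had lower signals in old mice. All 12 had a negative log2 fold change, with a median of -0.57 and Fn1 (fibronectin) nearest to 0 at -0.041 (SE 0.15), 6 of them lay lower without overlap (5.11% of all genes did), and 1, Col1a2, passed the adjusted threshold (0.181% of all genes were called lower). Col1a2, which encodes a chain of type I collagen, read 18401, 19499, 16951 and 16119 in young mice 3, 4, 7 and 8 and 11779, 12603, 12125 and 10796 in old mice, and fell by 0.58 on the log2 scale (SE 0.088, adjusted p = 0.0445 by limma). It no longer passed when any 1 of the 8 mice was left out. The summed signal of the 12 genes was 74328 to 95562 in young and 46776 to 60439 in old mice, so that this group, like Sparc, did not overlap between ages.

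Markers of the cell types that make Sparc and collagen were read beside this difference. The summed signal of 9 fibroblast markers was 58532 to 65023 in young and 55213 to 61449 in old mice, and that of 12 chondrocyte markers 20239 to 36115 and 21918 to 26354, both with overlap. That of 9 smooth muscle markers was 90490 to 103856 in young and 77533 to 89748 in old mice, without overlap. A negative log2 fold change was held by 8 of the 9 fibroblast, 11 of the 12 chondrocyte and all 9 smooth muscle markers, beside 9277 of all 18193 genes. Without overlap, 2 of the fibroblast, 1 of the chondrocyte and 3 of the smooth muscle markers lay lower in old mice, beside 5.11% of all genes. No marker of these 3 cell types passed an adjusted p under 0.05 by limma, and an unadjusted p under 0.05 was reached by 3 of the fibroblast, 3 of the chondrocyte and 5 of the smooth muscle markers, beside 14.6% of all genes. The part of a changed share of any of these cells in the Sparc difference was not tested.

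Genes that respond within minutes to serum, stress or handling were examined because Ccn1 and Thbs1 are known to respond in that way. Of 20 immediate early genes, 18 had a positive log2 fold change, with a median of 0.48, and 7 lay higher in old mice without overlap (5.02% of all genes did). Nr4a1, an orphan nuclear receptor, passed the adjusted threshold (0.368% of all genes were called higher): it read 443, 394, 351 and 457 in young and 949, 2393, 1722 and 2533 in old mice, and rose by 2.12 on the log2 scale (SE 0.30, adjusted p = 0.0396 by limma). It kept that call in 1 of the 8 fits that leave out a mouse. The summed signal of the 20 genes was 33341, 41001, 28002 and 46635 in old mice 1, 2, 5 and 6, the same order of mice as for the brightest probe set of Ccn1, whereas Thbs1 ran in the opposite order among these 4 mice. In young mice the sums were 24155, 23157, 19433 and 26075 in mice 3, 4, 7 and 8, with mouse 8 highest and mouse 7 lowest, again as for that probe set. Dusp1 and Fos weighed heavily in the sums, at 12064 and 7999 in old mouse 6 against 3918 and 1636 in old mouse 5. Single genes did not all keep the order of the sums. Nr4a1 was lowest in old mouse 1, and Nr4a2 and Nr4a3 were lowest in old mouse 6, at 692.5 and 741. The part of such a response in the Ccn1 and Thbs1 differences was not tested.

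Among 18 other targets of YAP, none passed the adjusted threshold by limma, 7 passed an unadjusted p under 0.05 (14.6% of all genes did), the median was 0.06 and 10 of 18 had a positive log2 fold change. Amotl2, which encodes an angiomotin that binds YAP, read 668, 726, 876 and 1077 in young and 1621, 1498, 1167 and 1521 in old mice, at 0.81 (SE 0.17, adjusted p = 0.101 by limma). Nuak2, a kinase gene, was at 0.27 (SE 0.059, adjusted p = 0.108 by limma). Of the 18, 4 lay higher in old mice without overlap (5.02% of all genes did) and 1 lower (5.11%).

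**Figure D4:**
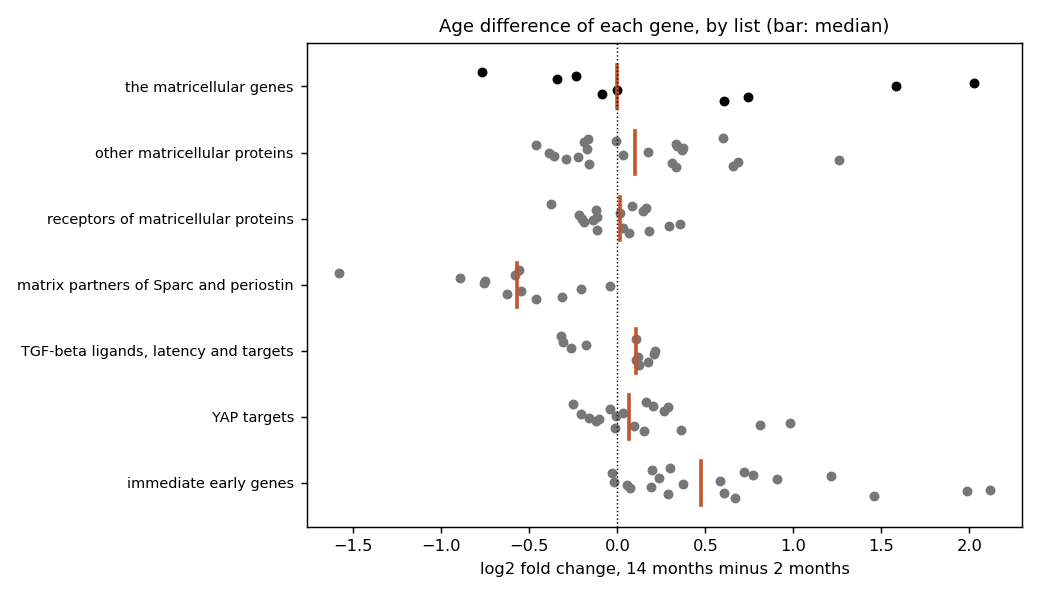
Log2 fold change of old minus young mice for the brightest probe set of each gene, by list, with 9 matricellular genes in black, 6 lists of related genes in grey and the median of each as a bar. The 12 matrix partners of Sparc and periostin all lie below 0 and 18 of the 20 immediate early genes above it, while the other lists are spread to both sides.

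Macrophages and lymphocytes are other possible sources of matricellular RNA. Of 11 macrophage markers none was called by limma, 5 had an unadjusted p under 0.05 (14.6% of all genes did) and 10 had a positive log2 fold change. C1qa, C1qb, C1qc, Adgre1 and Cd68, which are named after their values were seen, lay higher in old mice without overlap, 5 of the 11 beside 5.02% of all genes. The summed signals overlapped, at 31326 to 34036 in young and 32379 to 38565 in old mice, and most of each sum was Lyz2, with means of 20685 and 20830. Of 7 measured lymphocyte markers none was called, 4 had an unadjusted p under 0.05, and all had a positive log2 fold change with a median of 1.004. Their sums were 477 to 552 in young and 631 to 1331 in old mice, without overlap, but 6 of the 7 were in the dimmer part of the array. Of 5 tendon and ligament markers, 1 was called, Mkx, a transcription factor of tendon (0.368% of all genes were called higher). It read 217, 234, 246 and 242 in young and 478, 394, 371 and 452 in old mice. Its log2 fold change was 0.85 (SE 0.0997, adjusted p = 0.0274 by limma). Mkx kept the call in 1 of the 8 fits that leave out a mouse. Tnmd, the defining tendon marker, was at -0.60 (SE 0.15, adjusted p = 0.128 by limma). Scx was at 0.43 (SE 0.16), Fmod at 0.57 (SE 0.21) and Kera at -0.56 (SE 0.46). By limma, 4 of the 5 had an unadjusted p under 0.05 (14.6% of all genes did). Without overlap, 2 of the 5 lay higher in old mice (5.02% of all genes did) and 1 lower (5.11%). The part of these cells in the differences of the matricellular genes was not tested.

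Once the mean of each age was taken away, the mice still differed in a way that age did not set. The genes whose deviations over the 8 mice were most like those of Thbs1, among 11872 genes in the brighter part, were B3galnt1, Med24 and Sf3b3, with Pearson r of 0.98, 0.97 and 0.97. Those most like Sparc were Bpnt2, Ly6i and Chpf, at 0.98, 0.97 and 0.96. These are the extremes of very many genes over 8 mice on shared arrays and are given as a description.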

How the data were processed

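Total RNA of 8 tracheas was hybridised to 1 array each. According to the methods, the authors used Partek Genomics Suite and robust multichip averaging for normalization; the deposited intensity values are linear, with no detection call and a trimmed mean of 500 on every array, a form that this averaging does not usually give, and the labels name Partek alone. How the signals were scaled is therefore not settled, and the number of arrays limits the precision. Of 45101 probe sets, 64 controls were left out. The signal was taken to log2 with no floor or filter, and 45037 probe sets, or 18193 genes by their brightest probe set with 1 symbol, were fitted in limma 3.58.1 (lmFit and eBayes, R 4.3.3, two-sided) with Benjamini-Hochberg adjustment over all of them. The dimmer part of probe sets lies below a mean of 151. The annotation gives 34945 probe sets 1 symbol, 932 several and 9160 none. The methods' second factor is not named, so age stood alone. Nothing says more of the replicates than that they were separate mice.

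The fit was tried on simulated data with known shifts and independent noise, which does not bear on how the arrays were scaled. The genes and lists were chosen with earlier results of these data known. Named were all probe sets of the listed genes and the 3 genes most like Thbs1 and Sparc. From 6 lists of related genes, every called gene was named, or else the 2 with the smallest p. Krt5, Scgb1a1, Acan, Ppbp, Pf4, Mkx, Tnmd, Scx, Fmod, Kera, Fos, Dusp1, Nr4a2 and Nr4a3 were added after their values were seen. So were Fn1, Lyz2, C1qa, C1qb, C1qc, Adgre1 and Cd68. Lists of mineralising cells, skeletal muscle, endothelium and airway epithelium, with 5, 10, 10 and 9 measured genes, had no call. An unadjusted p under 0.05 was held by 1, 3, 4 and 2 of these genes, beside 14.6% of all genes. Their median log2 fold changes were 0.07, -0.12, -0.11 and -0.05. The summed signal of the skeletal muscle markers was 3901 to 5516 in young and 2552 to 3855 in old mice, without overlap. Alternatives were each mouse left out, 2 other scalings, floors of 32 and 64, the brighter part, 2 variance models, array weights, a block of mouse numbers, other handling of probe sets and the methods' thresholds. Mice 1 to 4 and 5 to 8 taken alone were added after seeing the data. Promoter windows came from RefSeq, GRCm38.p6.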

Additional observations from a re-analysis of the deposited data

Results flagged for a closer look

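Among 36 groups of 4 mice (18 probe sets at 2 ages), 2 held a mouse whose distance from the nearest other mouse exceeded what Dixon's test allows at 95%, where chance gives about 1 in 20. For Ccn1, young mouse 7 read 286 on 1457823_at, and the other young mice lay between 578 and 629. For Ccn2, old mouse 2 read 13009 on 1416953_at, and the other old mice lay between 10783 and 10824.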

How the results depend on the processing

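No paired analysis was possible because old and young mice share no number. Of 20 alternatives run on the folds, 6 left all 11 fold quantities as reported and bear only on calls. Of the 154 values under the other 14, 139 moved by less than the SD between mice and kept their sign. With each gene's probe sets averaged, log2 fold changes were 0.48 for Thbs2, -0.50 for Sparc, 1.76 for Thbs1 over Sparc and 0.98 for Thbs2 over Sparc, and that of Tnc turned to 0.39. That of Tnc also turned without old mouse 2 (0.15), old mouse 6 (0.08) and young mouse 3 (0.10), and among mice 5 to 8 alone (0.086), and ranged from -0.19 to 0.15 over the mice left out. Among mice 1 to 4 alone Thbs4 turned to 0.25, Sparc was at -0.62 and Ccn2 at 1.30; among mice 5 to 8 alone Thbs4 was at -0.42, Sparc at -0.92, and Ccn2 turned to -0.085. These sets of mice were chosen after seeing the data. The cause of these was not tested.

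Counts at an adjusted p under 0.05, with 24 probe sets higher and 8 lower and 67 genes higher and 33 lower as reported, depended on the setting. Leaving out 1 mouse gave 0 to 12 probe sets higher and 0 to 6 lower, 8 to 24 genes higher and 3 to 24 lower, 0 to 1 matricellular genes higher (Thbs1, without old mouse 6), 0 to 0 lower and 0 to 0 matricellular probe sets in either direction. Floors of 32 and 64 gave 131 and 69 probe sets higher, 101 and 60 lower, 140 and 140 genes higher, and 109 and 119 lower; at 32, 1 matricellular probe set (Thbs2) was higher and 2 (Sparc) lower, and at 64, 0 and 1. The brighter part of the probe sets gave 270 probe sets higher and 227 lower, 237 genes higher and 205 lower, and 6 matricellular probe sets higher and 2 lower. A trended and robust prior gave 314 and 241 probe sets, 270 and 217 genes, and 6 and 2 matricellular probe sets. With mouse numbers as a block, 7 and 0 probe sets and 42 genes higher were called, and 0 matricellular genes in either direction. Without moderation, 0 and 0 probe sets and 40 genes higher were called, and 0 matricellular genes in either direction. Without _x_at and _s_at probe sets, 15 and 4 probe sets were called. The methods' thresholds gave 537 and 361 probe sets, 202 and 107 genes, 5 matricellular probe sets higher, 2 matricellular genes higher (Thbs1 and Ccn1, not Thbs2) and 0 lower. With each gene's probe sets averaged, 11 genes were lower and 0 matricellular genes were called in either direction. With quantile normalization 66 genes were higher and 29 lower, among them 2 matricellular genes higher (Thbs1 and Thbs2) and 0 lower. Col1a2, Nr4a1 and Mkx stayed called in 8, 10 and 12 of 19 alternatives.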
